A study of Rattus norvegicus with 18 samples.

Results

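The 10 genes described here encode enzymes that make prostaglandins and leukotrienes from arachidonic acid, and 2 receptors for prostaglandin E2. They are Pla2g4a, Ptgs1, Ptgs2, Ptges, Ptgis, Ptgds, Alox5, Alox5ap, Ptger2 and Ptger4. They were chosen by name: every probe whose gene name in the scanner files is one of these, or whose transcript accession maps to one, was taken. All 10 genes were found, on 11 probes, among 35279 gene names on the array. Of these 11 probes, 10 passed the filter on dim signals, 1 for each gene, and 27198 gene names passed it in all. RNA came from the proximal stump of the transected sciatic nerve of adult male Sprague-Dawley rats, the part still joined to the spinal cord. No transgene or drug treatment was applied beyond the anaesthetic, which was the same in every group. A segment of the nerve was resected in the left thigh, and nerve was collected right away (0 h), after 0.5 h or 1 h, or after 3 h, 6 h or 9 h. Each time-point was measured on 3 Agilent arrays of 1 colour, 18 in all, and the 0 h group serves as the control. The labels do not say whether an array holds RNA of 1 rat or of a pool, so the P-values measure the spread between arrays only.

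Prostaglandins and leukotrienes are lipid mediators of inflammation, pain and fever. Cytosolic phospholipase A2 (Pla2g4a) releases arachidonic acid from membranes, and the cyclooxygenases Ptgs1 and Ptgs2 turn it into prostaglandin H2. Terminal synthases then make prostaglandin E2 (Ptges), prostacyclin (Ptgis) or prostaglandin D2 (Ptgds). In the other branch, 5-lipoxygenase (Alox5) and its partner at the nuclear membrane, FLAP (Alox5ap), make leukotriene A4, the precursor of the other leukotrienes. Ptgs1 is known as the constitutive and Ptgs2 as the inducible cyclooxygenase, and Ptges is the inducible, membrane-bound prostaglandin E synthase. Ptger2 and Ptger4 encode EP2 and EP4, the receptors of prostaglandin E2 that raise cyclic AMP.

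Each signal is given below as the log2 of the processed signal minus the log2 of the 75th percentile of its array, so that 0 stands for a spot as bright as that percentile. Signals of different probes cannot be set against each other, since probes differ in how well they bind. A gene was called changed if its P-value from limma was below 0.01 before adjustment and below 0.05 after Benjamini-Hochberg adjustment over all 32110 probes tested, with all 18 arrays in 1 model. In bulk nerve RNA, fewer cells of a type and less RNA per cell cannot be told apart. The 0 h and 0.5 h arrays were scanned on 1 day, and the 1 h, 3 h and 6 h arrays with the first 2 arrays of 9 h on a second day. For comparisons of 1 h or later with 0 h or 0.5 h, scan day and time cannot be told apart. The comparison of 0.5 h with 0 h, and those of 3 h and 6 h with 1 h, lie within a scan day. That of 9 h with 1 h does so but for replicate 3 of 9 h.

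A value stands for the stretch of transcript that its probe binds. The tested probes of Ptgis, Alox5, Alox5ap and Ptger4 and the second, untested probe of Ptgs2 are given here 5′ to 3′. The tested probes of Ptgs1, Ptgs2, Ptges, Ptgds, Pla2g4a and Ptger2 are given by position alone. Each is 60 bases long, with coordinates of the rat build rn4 from the scanner files. The first is the second probe for Ptgs2, which starts at base 673 of the transcript, lies on the plus strand at chr13:64430899-64431083 and jumps a gap of 125 bases in the genome, so that it crosses the junction of 2 exons. The others are those of Ptgis (minus strand, chr3:158360438-158360497), Alox5 (minus strand, chr4:152610831-152612409, across a gap of 1519 bases), Alox5ap (minus strand, chr12:6246233-6246292) and Ptger4 (minus strand, chr2:54423296-54423355).
Ptgs2, probe across exons: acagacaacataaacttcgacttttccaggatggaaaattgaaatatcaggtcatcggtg
Ptgis: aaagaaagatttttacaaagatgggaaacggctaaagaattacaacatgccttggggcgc
Alox5: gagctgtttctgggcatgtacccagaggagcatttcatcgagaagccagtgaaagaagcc
Alox5ap: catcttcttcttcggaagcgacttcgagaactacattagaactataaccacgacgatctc
Ptger4: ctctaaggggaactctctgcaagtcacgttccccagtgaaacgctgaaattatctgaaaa
The Ptgs1 probe (plus strand, chr3:15365115-15365174) and the Ptgs2 probe used for the tests (plus strand, chr13:64434457-64434516) matched at 23 of 60 bases in their best ungapped alignment, and any pair of the 11 probes at no more than 25. The Ptgs2 probe used starts at base 3425 of the transcript and is printed on each array 10 times, as is that of Ptgs1, while the probes of the other 8 genes have 1 spot. The remaining probes lie on rn4 at chr3:9946741-9946800 for Ptges, chr3:3633310-3633779 for Ptgds, chr13:64146152-64146211 for Pla2g4a (minus strand, all 3), and on the plus strand at chr15:20889441-20889500 for Ptger2.

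Ptgs2 and Ptges were the members with the largest changes, and the 250 bases before each gene start are shown for comparison with the motifs named below. The sequences are from RefSeq, build GRCr8, and read along the strand of the gene. That of Ptgs2 lies at chr13:64713813-64714062 (plus strand) and that of Ptges at chr3:34586988-34587237 (minus strand). Capitals mark every match to a motif searched for.
Ptgs2, bases before the start: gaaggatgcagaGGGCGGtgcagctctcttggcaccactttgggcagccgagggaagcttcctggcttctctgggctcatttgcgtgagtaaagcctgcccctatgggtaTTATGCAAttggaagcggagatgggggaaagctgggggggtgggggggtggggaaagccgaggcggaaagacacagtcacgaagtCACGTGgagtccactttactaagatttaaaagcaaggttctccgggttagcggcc
Ptges, bases before the start: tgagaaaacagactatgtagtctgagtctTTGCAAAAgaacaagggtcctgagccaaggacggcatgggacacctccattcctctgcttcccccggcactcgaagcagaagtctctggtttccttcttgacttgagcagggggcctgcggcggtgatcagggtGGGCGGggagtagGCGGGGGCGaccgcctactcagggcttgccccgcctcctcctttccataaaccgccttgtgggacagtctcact
Both windows held a GC box (GGGCGG) and a match to a C/EBP site (TTGCNNAA). That of Ptgs2 also held an E-box (CACGTG) and that of Ptges an EGR site (GCGNGGGCG), a motif that can overlap a GC box but does not here. Of all 33469 rat promoters of this length, on both strands, 30.5% held the GC box, 9.22% the C/EBP site, 5.59% the E-box and 4.29% the EGR site. Neither window held a CRE (TGACGTCA, in 1.59% of promoters), an AP-1 site (TGANTCA, 6.34%), a TATA box (TATAAA, 12.9%) or an NF-κB site (6.33%), and among the 8 members in the table an NF-κB match was found before Alox5 and a TATA match before Pla2g4a. These matches describe the letters in a window and were not measured as binding.

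Ptgs2, the inducible cyclooxygenase, rose within 0.5 h of transection and stayed above 0 h at every later time-point. Its log2 signal was -2.81, -2.82 and -3.16 on the 3 arrays of 0 h, and 0.16, -0.39 and -0.16 at 0.5 h. At 1 h it was -0.69, -0.66 and -1.39, and at 3 h -2.02, -1.38 and -1.24. At 6 h it was -1.22, -1.25 and -1.21, and at 9 h -1.50, -2.04 and -1.0. All 15 arrays after transection were thus brighter than all 3 arrays of 0 h, and no array later than 0.5 h reached the lowest of 0.5 h. The change from 0 h was 2.80 ± 0.27 (SE, n = 3 arrays each) at 0.5 h, 6.96-fold, with an adjusted P-value from limma of 8.39e-05. It was 2.02 at 1 h (adjusted P-value from limma 0.000785), 1.39 at 3 h, 1.71 at 6 h and 1.42 at 9 h, 2.62-fold to 3.26-fold at the last 3. From 0.5 h the signal then fell, by 1.41 to 3 h and by 1.09 to 6 h (adjusted P-values from limma 0.0044 and 0.0122), whereas 1 h did not differ from 0.5 h in the test (-0.78 ± 0.27, adjusted P-value 0.263). With the normexp background correction the falls to 3 h and to 6 h were both 1.02 and were not called (adjusted P-values 0.0843 and 0.07), and without replicate 1 of 0.5 h the fall to 6 h was 0.95 (0.055). The change at 9 h against 1 h was -0.60 (0.117), and it was called, at -0.86 (0.0382), without replicate 3 of 9 h and at -0.84 (0.0387) without replicate 3 of 1 h. With array weights it was called too (-0.83, 0.0018), as was the change at 3 h against 1 h (-0.85, 0.0242). The rise over 0 h was called at all 5 time-points under every alternative that could be fitted and with each array left out in turn. Ordered by mean, the levels ran 0.5 h, 1 h, 6 h, 9 h, 3 h and 0 h, and of these neighbours the test separated 3 h from 0 h only. The second Ptgs2 probe, shown above, was well above background on 1 of 18 arrays (replicate 1 of 6 h), so it was not tested and neither repeats nor opposes this course.

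Ptgs1, the constitutive cyclooxygenase, was lower at 9 h and at no earlier time-point in the test. Its log2 signal was 0.92, 1.03 and 0.68 at 0 h and 0.10, 0.02 and 0.14 at 9 h, without overlap. The 12 arrays between lay no higher than 0.74, and those of 0.5 h, 1 h and 6 h overlapped those of 0 h. The change at 9 h was -0.79 ± 0.19 (0.577-fold, adjusted P-value from limma 0.00517) and was called under every alternative but the fold limit of 2, which it did not reach. The changes at 0.5 h to 6 h were -0.23, -0.39, -0.54 and -0.51 and were not called, and Ptgs1 was the 1 member not called over the 6 time-points together (F-test, adjusted P-value 0.0362 with an unadjusted P-value of 0.0134). It did pass that test with 1 of 4 arrays left out (1 h replicate 1, 3 h replicates 1 and 3, 6 h replicate 2), with adjusted P-values of 0.0298, 0.0289, 0.0226 and 0.0155. Its change at 3 h passed if replicate 3 of 3 h (-0.69, adjusted P-value 0.0395) or replicate 2 of 6 h (-0.54, 0.0457) was left out. Its change at 6 h was called without replicate 1 of 3 h (-0.51, 0.0416) or replicate 2 of 6 h (-0.69, 0.0171). The F-test was also passed with array weights (0.0119), a robust trend (0.019) or the shift to the median (0.03), the change at 3 h with the robust trend (0.0458), and that at 6 h with the shift (0.0316). With replicate number as a block the F-test (0.0247) and the change at 3 h (0.0484) passed too.

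**Figure D1:**
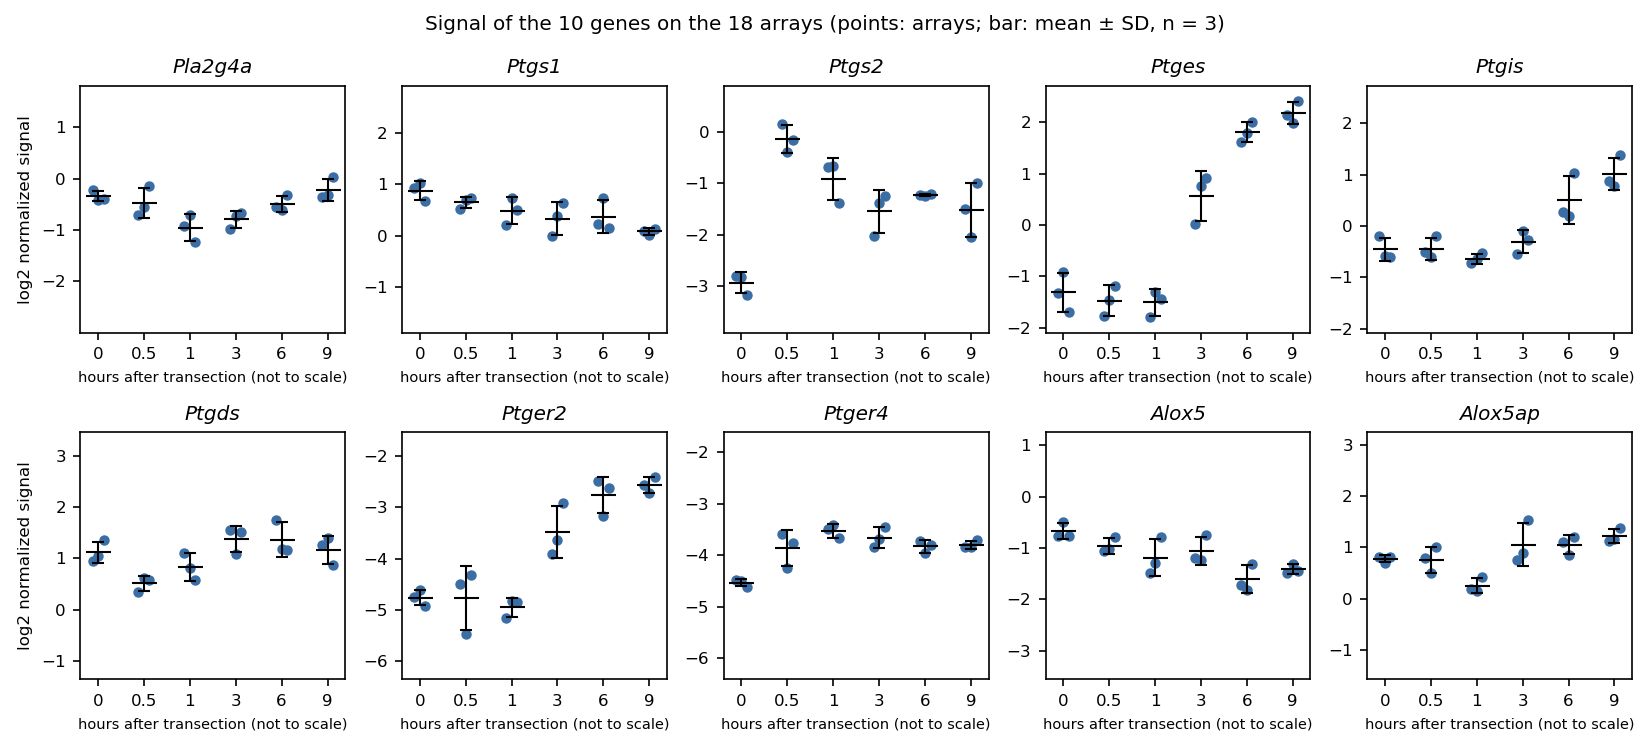
Log2 normalized signal (y axis, each panel spanning the same range) of the 10 genes on the 18 arrays by hours after transection (x axis, evenly spaced and not to scale); points are arrays and bars the mean ± SD of 3 arrays. Ptgs2 is highest at 0.5 h, Ptges and Ptger2 leave the level of 0 h at 3 h, and Ptgis at 6 h.

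Ptges, the inducible prostaglandin E synthase, followed later and rose further than any other member. On the 3 arrays its log2 signal was -1.32, -0.92 and -1.69 at 0 h and -1.78, -1.46 and -1.19 at 0.5 h. At 1 h it was -1.79, -1.30 and -1.43, and at 3 h it was 0.02, 0.76 and 0.91. It then reached 1.62, 1.80 and 2.01 at 6 h and 2.14, 1.99 and 2.4 at 9 h. The first 3 time-points overlapped, and every array from 3 h on was brighter than every array before it. The change from 0 h was 1.87 ± 0.25 at 3 h (3.67-fold), 3.12 at 6 h (8.68-fold) and 3.49 at 9 h (11.2-fold), with adjusted P-values from limma of 0.000252, 1.97e-06 and 6.55e-07. Against 1 h, within the second scan day, it was 2.07 at 3 h and 3.32 at 6 h (adjusted P-values from limma 0.000243 and 2.48e-06). These changes against 0 h and 1 h were called under every alternative. From 3 h to 6 h the signal rose by 1.24 ± 0.25 (adjusted P-value 0.0135), though not with the arrays of these time-points alone (0.109) or without replicate 1 of 3 h (0.97, 0.0575). The step from 6 h to 9 h, 0.37 ± 0.25, was not called (0.569).

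Ptgis, which makes prostacyclin, was the last of the members called higher than 0 h to be so called, at 6 h. Its signal was -0.19, -0.58 and -0.59 at 0 h and stayed between -0.72 and -0.11 up to 3 h. It was 0.27, 0.19 and 1.04 at 6 h and 0.88, 0.79 and 1.37 at 9 h, above every earlier array. The change from 0 h was 0.96 ± 0.22 at 6 h and 1.47 at 9 h (1.94-fold and 2.77-fold, adjusted P-values from limma 0.0061 and 0.000255), and from 1 h it was 1.13 and 1.65. The change at 6 h was lost, with an adjusted P-value of 0.0533, where the arrays of 0 h and 6 h alone were fitted, and at the fold limit of 2. The step from 3 h to 6 h was 0.81 (adjusted P-value 0.0498) and did not reach the fold limit of 2. It was lost under 7 further alternatives that left out no single array, normexp (0.119) and quantile normalization (0.0529) among them, and when any 1 of 15 arrays was left out.

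Ptgds, which makes prostaglandin D2, had its lowest mean at 0.5 h, and it was called against 0.5 h at later time-points but at none against 0 h. Its signal was 0.96, 1.06 and 1.35 at 0 h and 0.35, 0.62 and 0.58 at 0.5 h, without overlap, but the difference, -0.60 ± 0.20, missed the limit (adjusted P-value from limma 0.0954) and passed it with the shift to the median (0.0442) or array weights (0.0269). Against 0.5 h it rose by 0.87 at 3 h and by 0.84 at 6 h (0.0141 and 0.00988), neither of which was called under normexp (0.70 and 0.80, 0.127 and 0.0657). It was called over the 6 time-points (F-test, adjusted P-value 0.0179). That call was lost with the normexp correction (0.147), with any array of 0.5 h left out (0.0615, 0.0376 and 0.0402 for replicates 1 to 3), and with replicate 1 or 3 of 3 h left out (0.034 and 0.0335), where the unadjusted P-value passed 0.01. The rise to 3 h was lost without replicate 1 of 0.5 h (0.78, 0.0617) or replicate 3 of 3 h (0.80, 0.0584), and against 1 h the change at 6 h, 0.53, was called only without replicate 1 of 1 h (0.67, 0.044).

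Both receptors of prostaglandin E2 rose, Ptger4 from 0.5 h on and Ptger2 from 3 h on. Ptger4 gave -4.48, -4.49 and -4.62 at 0 h and -3.59, -4.25 and -3.75 at 0.5 h. At 1 h it gave -3.49, -3.40 and -3.67. From 3 h to 9 h its 9 arrays lay between -3.96 and -3.45. Every array after transection was above those of 0 h. The change was 0.67 ± 0.15 at 0.5 h, 1.01 at 1 h (2.01-fold), 0.87 at 3 h, 0.71 at 6 h and 0.73 at 9 h, with adjusted P-values from limma of 0.0217, 0.00178, 0.00187, 0.00376 and 0.00234. That at 0.5 h was lost when replicate 2 or 3 of 0 h was left out (0.69 and 0.63, adjusted P-values 0.0615 and 0.0671). It was lost too when replicate 1 or 3 of 0.5 h was (0.53 and 0.61, adjusted P-values 0.0892 and 0.0895). With the normexp correction none of the 5 was called, the changes being 0.41, 0.70, 1.26, 0.29 and 0.29 in order of time. With quantile normalization those at 0.5 h, 6 h and 9 h were not (0.39, 0.37 and 0.41), nor with the deposited matrix (0.37, 0.35 and 0.40), and that at 0.5 h was not with these 6 arrays alone (0.118).

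Ptger2 gave -4.74, -4.62 and -4.92 at 0 h and -5.16, -4.83 and -4.85 at 1 h. At 0.5 h it gave -4.50, -5.47 and -4.32, and replicate 2 of that time-point was the 1 array on which it was not well above background. It gave -3.90, -3.64 and -2.92 at 3 h and -2.49, -3.16 and -2.63 at 6 h. At 9 h it gave -2.57, -2.73 and -2.42. All arrays from 3 h on were thus brighter than all earlier ones, as for Ptges. The change from 0 h was 1.27 ± 0.29 at 3 h (2.41-fold), 2.0 at 6 h and 2.19 at 9 h (4.56-fold), with adjusted P-values from limma of 0.0107, 0.000276 and 0.000104. Against 1 h it was 1.46, 2.19 and 2.38. Under normexp those at 6 h and 9 h against 0 h were 1.16 and 1.27 and no longer called (adjusted P-values 0.103 and 0.0563), nor were those against 1 h, of which that at 3 h was also lost with these 6 arrays alone (0.0616). The difference of 9 h from 3 h, 0.92 (0.0457), turned to -0.19 under normexp (0.721) and was lost when any 1 of 12 arrays was left out. Under normexp the median of all tested probes itself lay 0.44 higher at 3 h than at 0 h, against 0.00 in the scaling used here.

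**Figure D2:**
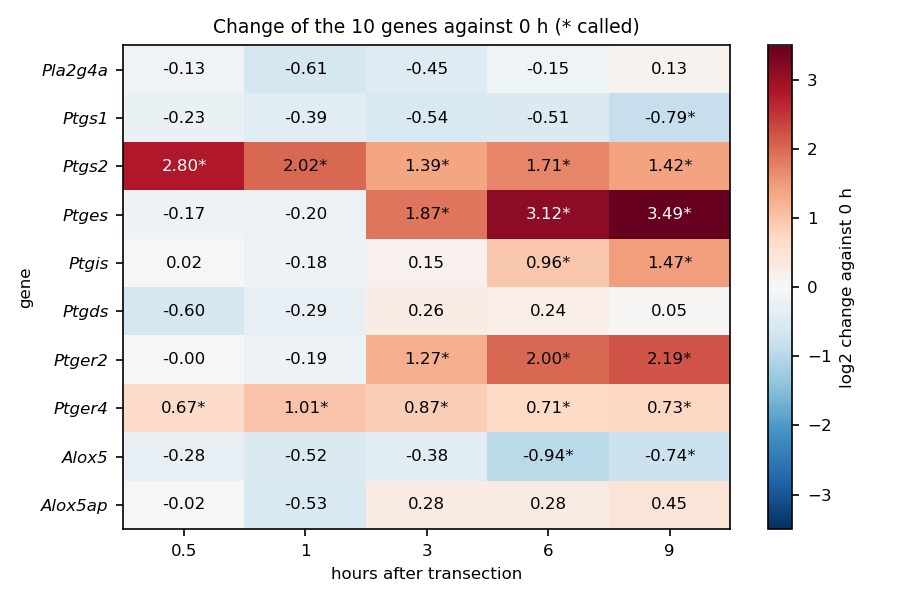
Log2 change of the 10 genes (rows) against 0 h at the 5 later time-points (columns); red is higher, blue lower, and an asterisk marks a change called by limma (3 arrays each). The called rises begin at 0.5 h for Ptgs2 and Ptger4, at 3 h for Ptges and Ptger2 and at 6 h for Ptgis, and the called falls are those of Alox5 at 6 h and 9 h and of Ptgs1 at 9 h.

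Pla2g4a, which supplies the arachidonic acid, had its lowest means at 1 h and 3 h. It gave -0.23, -0.41 and -0.39 at 0 h and -0.92, -0.71 and -1.23 at 1 h. At 3 h it gave -0.99, -0.73 and -0.66, and at 9 h -0.36, -0.32 and 0.03. The arrays of 1 h and of 3 h lay below all of 0 h, but neither difference, -0.61 ± 0.17 and -0.45, passed the test (adjusted P-values from limma 0.0512 and 0.0933). The difference at 1 h passed with 1 of 3 arrays left out, namely 0.5 h replicate 3 (-0.61, 0.0328), 1 h replicate 2 (-0.73, 0.0382) and 9 h replicate 3 (-0.61, 0.0352). It passed as well under 5 alternatives with all arrays, namely the shift to the median (-0.77, 0.0135), probes well above background on all 18 arrays (0.0357), slide as a random block (0.0458), array weights (-0.51, 0.0341) and the robust trend (0.0344). The difference at 3 h passed with the shift (0.0385) and with array weights (0.0425). From 1 h to 9 h it rose by 0.73 (adjusted P-value 0.00522, and 0.0522 with these arrays alone). Over all time-points it was called (F-test, adjusted P-value 0.0191), but not with normexp (0.13). Leaving out 1 of 5 arrays also ended that call: 0 h replicate 1 (0.032), 1 h replicates 1 and 3 (0.041 and 0.0404), 3 h replicate 1 (0.0323) and 9 h replicate 3 (0.0351).

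In the leukotriene branch Alox5 was lower than 0 h at 6 h and 9 h, and Alox5ap was higher at 3 h, 6 h and 9 h than at 1 h but was called at no time-point against 0 h. Against 1 h Alox5 was not called (-0.23 at 9 h, adjusted P-value from limma 0.419), and the courses of both genes were not tested against each other. Alox5 gave -0.76, -0.49 and -0.77 at 0 h and -1.71, -1.82 and -1.30 at 6 h. At 9 h it gave -1.50, -1.30 and -1.44. The later groups did not overlap with 0 h, and the arrays between gave -1.48 to -0.74. The change was -0.94 ± 0.19 at 6 h and -0.74 at 9 h (0.521-fold and 0.597-fold, adjusted P-values from limma 0.00244 and 0.00782), both called under every alternative but the fold limit of 2, which neither reached. Its F-test (adjusted P-value 0.0112) missed the limit without replicate 2 of 0 h (0.0343), and its change at 1 h, -0.52 (0.12), passed without replicate 3 of 1 h (-0.72, 0.0492), with the shift to the median (-0.68, 0.0455) and with array weights (-0.71, 0.0129).

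Alox5ap gave 0.82, 0.69 and 0.81 at 0 h and 0.78, 0.50 and 1.00 at 0.5 h. At 1 h it gave 0.18, 0.15 and 0.41, and at 3 h 0.75, 0.89 and 1.52. It stood at 1.1, 0.84 and 1.21 at 6 h and at 1.13, 1.16 and 1.37 at 9 h. The arrays of 1 h were the 3 lowest of the 18. Against 1 h the signal rose by 0.81 ± 0.18 at 3 h, 0.80 at 6 h and 0.97 at 9 h (adjusted P-values from limma 0.0127, 0.00564 and 0.00139), of which the first and second were lost under normexp (0.178 and 0.0832) and the first also with these 6 arrays alone (0.135). Against 0 h none of its changes was called, that at 1 h being -0.53 ± 0.18 (0.106) and that at 9 h 0.45 (0.0702). Without replicate 3 of 3 h both were (adjusted P-values 0.0413 and 0.0229). That at 1 h was called with the shift to the median (0.0214) and array weights (0.0351) too, and that at 9 h with these 6 arrays alone (0.0333). With replicate number as a block both were called as well.

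Counted together, 9 of the 10 members were called over the 6 time-points (F-test), where 36.3% of all gene names tested were. Against 0 h, 2 members were higher and none lower at 0.5 h and again at 1 h, where 4.7% and 3.89% of all gene names were called higher and 1.92% and 2.21% lower. At 3 h 4 were higher and none lower (7.7% called higher and 7.09% lower). At 6 h 5 were higher and 1 lower (13.1% and 13.5%), and at 9 h 5 were higher and 2 lower (17% and 15.9%). Against 1 h, 3 members were higher at 3 h (6.07%), 4 at 6 h (12.5%) and 5 at 9 h (12.5%), and none lower (4.95%, 13.2% and 14.4%). At an unadjusted P-value from limma under 0.05, 1, 3 and 2 members were lower than 0 h at 0.5 h, 1 h and 3 h, and 1, 1 and 2 lower than 1 h at 3 h, 6 h and 9 h. Between later time-points, 3 members were higher and 1 lower at 3 h than at 0.5 h (5.76% and 4.83% of all gene names), 4 and 2 at 6 h than at 0.5 h (10.5% and 10%), 2 and none at 6 h than at 3 h (3.15% and 2.7%), and 4 and none at 9 h than at 3 h (8.25% and 9.05%). The median change of the 10 members against 0 h was -0.07, -0.24, 0.27, 0.49 and 0.59 in order of time, and that of all gene names tested was between 0.00 and 0.02. Against 0 h at 1 h the count of called members was 5 with a shift of each array to its median, which put the median of all probes at -0.14 in place of 0.02, and 5 with array weights.

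The arrays held signals of other cells that moved with some of these results. The summed linear signal of 11 neutrophil markers, in units of the 75th percentile, was 3.4 to 4.8 at 0 h, 5.5 to 8.6 at 0.5 h and 1 h, 12.3 to 31.6 at 3 h, 26.3 to 43.9 at 6 h and 36.3 to 46.5 at 9 h. Of these genes 10 were called over the time-points (36.3% of all gene names), all of them higher at 6 h (13.1%). S100a8 was up by 5.89 at 6 h and Cxcr2, which was well above background on 12 of 18 arrays, by 4.78. Mpo, the myeloperoxidase of neutrophil granules, was 0.04 higher at 6 h and was not called. The part of neutrophils in these results was not tested. The sum of 13 macrophage markers moved little (190.3 to 250.8 over all arrays), although 9 of them were called over the time-points. At 6 h 4 of them were called higher, among them Itgam (2.02) and Cd14 (1.48), and 1 lower, Adgre1 (-1.03). Of 9 mast cell markers none was called over the time-points by limma, 1 at an unadjusted P-value under 0.05, and 1, Ms4a2, was called lower at 6 h (-0.91). Their summed signal was 24.2 to 29.0 at 0 h, 22.3 to 28.7 at 0.5 h and 17.3 to 22.2 at 1 h. At 3 h, 6 h and 9 h it was 14.7 to 28.5, 18.6 to 22.7 and 20.5 to 24.6. The part of mast cells in these results was not tested. The defining markers of the labelled tissue were present, with all 14 Schwann cell genes tested. Their sum lay between 865 and 1025 at 0 h and between 685 and 780 at 9 h, when 2 were called higher and 5 lower. The sum of 9 fibroblast markers lay between 1451 and 1514 at 0 h and between 999 and 1050 at 9 h, with 6 called lower. That of 10 endothelial markers lay at 58.0 to 62.3 and 43.1 to 45.0, with 1 higher and 3 lower (17% and 15.9% of all gene names at 9 h). At 9 h Ptgs1, Alox5, Ltc4s and Hpgd were lower as well, and the part of these cells in those changes was not tested. The sum of 5 erythroid and platelet markers went from a range of 5.5 to 17.4 at 0 h to one of 22.6 to 27.4 at 0.5 h, with 1 of the 5 called higher (4.7% of all gene names). That of 6 adipocyte markers went from a range of 47.7 to 83.6 to one of 85.9 to 123.8, with none of the 6 called. Neither sum overlapped between both time-points. At 0.5 h Ptgs2 and Ptger4 were higher as well, and the part of these cells in those rises was not tested. The sum of 9 skeletal muscle genes was 1425 on replicate 1 of 0 h and 2.8 to 379.6 on the other 17 arrays. Without that array the members called against 0 h numbered 2, 2, 4, 6 and 7 in order of time, the same counts as with it. Replicates 2 and 3 of 0 h gave muscle sums of 85.1 and 123.0, and the arrays of 1 h 4.0 to 77.2. Leaving out replicate 1 of 0 h thus did not remove the difference in this signal. The share of spots well above background was 65.9% to 93.5% and was highest on replicate 1 of 6 h.

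**Figure D3:**
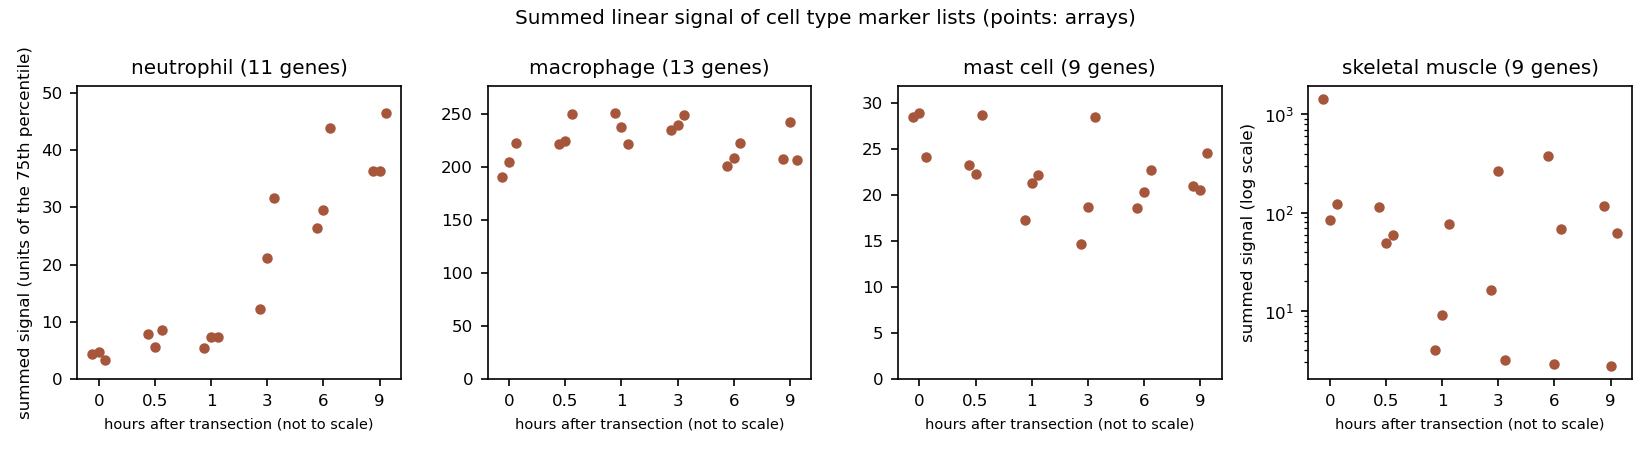
Summed linear signal of 4 marker lists (y axes in units of the 75th percentile of each array, the skeletal muscle panel on a log scale) by hours after transection (x axis, evenly spaced and not to scale); points are arrays, 3 for each time-point. The neutrophil sum lies at 3.4 to 4.8 at 0 h and at 36.3 to 46.5 at 9 h, and replicate 1 of 0 h stands apart for skeletal muscle.

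Around these members, 59 other genes of eicosanoid synthesis, breakdown, transport and reception were examined, of which 53 were on the array and 48 were tested. Over the time-points 21 of the 48 were called (36.3% of all gene names). Against 0 h, 1 was higher at 0.5 h and 2 at 1 h (4.7% and 3.89% of all gene names). None was lower by limma (1.92% and 2.21% of all gene names), and 2 and 7 were lower at an unadjusted P-value under 0.05. At 3 h 5 were higher and 5 lower (7.7% and 7.09% of all gene names), at 6 h 7 and 9 (13.1% and 13.5%), and at 9 h 9 and 9 (17% and 15.9%), so that the shares of the 48 at 9 h lay near those of all genes. The largest change was that of Ltb4r, the receptor of leukotriene B4, which draws neutrophils to a site. It gave -3.75, -3.23 and -3.60 at 0 h and -0.64, -0.66 and -0.17 at 9 h, a rise of 2.05 at 6 h and 3.04 ± 0.33 at 9 h (8.2-fold, adjusted P-value from limma 2.03e-05).

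Some enzymes of the leukotriene side were lower. Ltc4s, the leukotriene C4 synthase, gave -2.15, -1.60 and -1.79 at 0 h and -4.21, -3.44 and -4.01 at 9 h, a fall that measured -0.83 at 3 h, -1.53 at 6 h and -2.04 ± 0.22 at 9 h (0.243-fold, adjusted P-value from limma 2.38e-05). Its change at 3 h was lost under normexp (-0.23), with these 6 arrays alone, when replicate 2 or 3 of 0 h was left out (-0.71 and -0.80), or when replicate 1 or 3 of 3 h was left out (-0.77 and -0.72). Lta4h, which makes leukotriene B4, changed by -0.54 at 6 h and -0.65 at 9 h, and Dpep2, a dipeptidase that acts on leukotriene D4, by -0.80, -0.85 and -0.89 at 3 h, 6 h and 9 h, all called. Of the same branch Mgst2, Ggt1, Ggt5 and Dpep1 were called at neither time-point against 0 h, and nor was Alox5ap.

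On the prostaglandin side changes went both ways. Pla2g2a, a secreted phospholipase A2, rose by 1.60 at 6 h and 2.0 at 9 h (4.01-fold), whereas Pla2g5, another secreted phospholipase A2, was lower at 9 h (-0.60). Pla2g7, which breaks down platelet-activating factor, rose by 1.60, 2.10 and 2.05 at 3 h, 6 h and 9 h, the first of which was lost with these 6 arrays alone (adjusted P-value 0.0547). Ptgir, the prostacyclin receptor, was called higher at 1 h (1.54, adjusted P-value from limma 0.0322) and 3 h (1.23, 0.0459), and at 9 h it rose by 1.88 ± 0.38 (3.67-fold, adjusted P-value from limma 0.00212), though at none of the 3 time-points under normexp (0.89, 1.46 and 1.01, adjusted P-values 0.708, 0.0767 and 0.215). With quantile normalization the calls at 1 h and 3 h were lost (0.0501 and 0.0652), and so they were when any 1 of 6 and any 1 of 13 arrays was left out. Its F-test (0.0166) was lost without replicate 1, 2 or 3 of 0 h (0.0623, 0.0453 and 0.056). Slco2a1, the carrier that takes prostaglandins into cells, rose by 1.66 and 1.49 at 6 h and 9 h, under normexp 0.98 and 0.85 and not called. Hpgd, the dehydrogenase that inactivates prostaglandins, gave 0.07, -0.13 and -0.68 at 0 h and -1.01, -2.37 and -2.04 at 6 h. At 9 h it gave -1.57, -1.98 and -1.49. Its change was -1.56 ± 0.29 at 6 h and -1.43 at 9 h (adjusted P-values from limma 0.0015 and 0.00206). Ptgfr, the prostaglandin F receptor, was lower at 3 h by the test (-0.82, 0.0301), but higher under normexp (0.83, not called), and the call was lost when replicate 1 or 2 of either time-point was left out (-0.68 and -0.87 for 0 h, -0.84 and -0.62 for 3 h).

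Of the remaining genes with large changes, Aloxe3, an epidermal-type lipoxygenase, rose between 1 h and 3 h (2.26, adjusted P-value from limma 6.83e-05). It gave -2.67, -3.05 and -3.07 at 1 h and -0.66, -0.62 and -0.71 at 3 h. Its change from 0 h was 2.58 ± 0.22 at 3 h (6-fold, adjusted P-value from limma 9.34e-06), 2.17 at 6 h and 1.39 at 9 h. Akr1b8, an aldo-keto reductase, rose by 0.96, 1.55 and 1.58 at 3 h, 6 h and 9 h, the first lost with these 6 arrays alone (adjusted P-value 0.0504). Anxa1, annexin A1, an inhibitor of phospholipase A2 activity, was called higher at all 5 time-points, with its largest change at 3 h (0.99 ± 0.12). Its changes at 0.5 h, 1 h and 9 h (0.58, 0.69 and 0.36) were lost under normexp. That at 0.5 h was also lost without replicate 3 of 0 h (0.51) or replicate 1 of 0.5 h (0.52), and that at 9 h, among others, without replicate 3 of 0 h (0.29) or replicate 3 of 9 h (0.30).

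**Figure D4:**
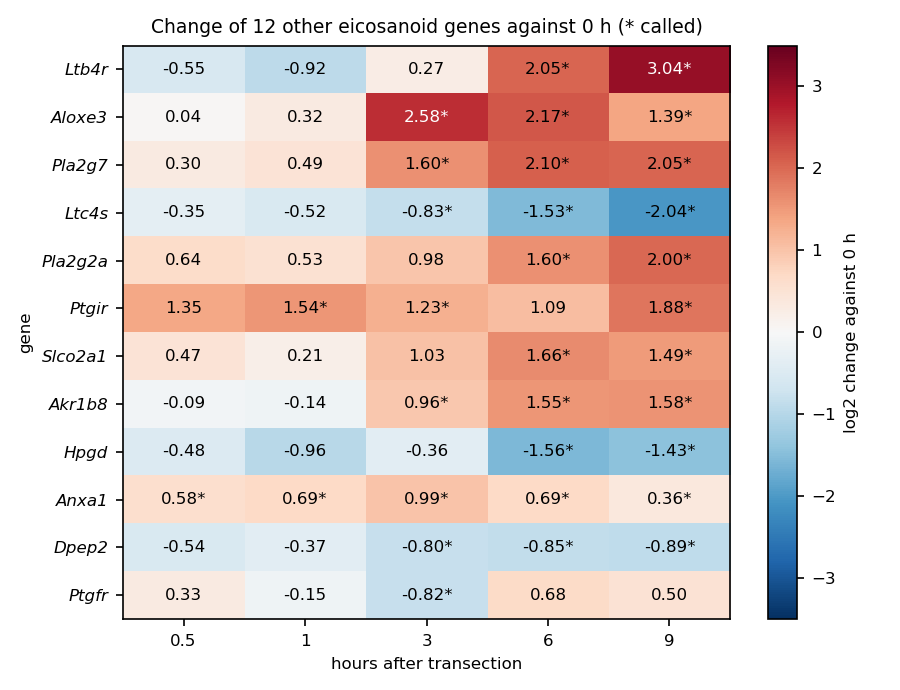
Log2 change against 0 h (columns: the 5 later time-points) of the 12 other eicosanoid genes with the largest called change (rows, in order of that change); red is higher, blue lower, and an asterisk marks a change called by limma (3 arrays each). Ltb4r reaches 3.04 and Ltc4s -2.04 at 9 h.

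Across the 18 arrays, the members fell into different company among 13341 gene names compared. This is a description without a test, since arrays of a time-point share its course. Nearest to Ptgs2 by Pearson's r were Ier2, an immediate early gene (0.94), Tnfsf9 (0.91) and Nfkbiz (0.90), and nearest to Ptger4 was Csrnp1 (0.92). Nearest to Ptges were Cd44, the receptor of hyaluronan (0.99), Adam8 (0.99) and Clcf1 (0.99), and to Ptger2 Bid (0.99), Trem1 (0.98) and Akr1b8 (0.98). Ptgis stood nearest to the scavenger receptor Msr1 (0.96), Alox5ap to Cd86 (0.93) and Alox5 to the macrophage gene Adgre1 (0.94). Among the members themselves Ptges and Ptger2 correlated at 0.96, Ptges and Ptgis at 0.88, Ptgs2 and Ptger4 at 0.71, and Ptgs2 and Ptges at -0.05.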

How the data were processed

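RNA of the 18 nerve samples was labelled with Cy3 and hybridised to Agilent arrays of 1 colour. The authors deposited the scanner output of Agilent Feature Extraction (version 10.5.1.1 per the file headers), a background-subtracted linear intensity, and a matrix of log2 values with the same median on every array (7.75), so normalized between arrays before deposit and used here as an alternative. The flags for control, outlier, saturated and well above background spots were used as the deposited files give them. A 1-colour array has no counts, so precision is limited by how many arrays there are and by how far a signal lies over background.

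Spots marked as controls or outliers were dropped, the log2 of each array's 75th percentile was subtracted from its log2 processed signals, spots of a probe were averaged, and probes well above background (over 0.5 of their spots) on all 3 arrays of a time-point were tested. No spot was saturated. Probes were named by accession (16336), symbol (3732) or older symbol (1098) in a RefSeq table for GRCr8, and otherwise by the files. Contrasts came from limma's lmFit and eBayes (prior degrees of freedom 1.94). On data simulated from the same model the contrasts recovered the changes put in. This checks the code and does not show how many real changes are found. A gene is called if any of its probes is, and the tested probe with the highest mean is reported.

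The 10 members, the 59 other genes and the marker lists were chosen with earlier results of these data known. Comparisons among time-points other than those with 0 h and 1 h were added after values were seen. The members were named with all probes, and of the other genes the 12 with the largest change against 0 h among those called in the F-test, apart from Lta4h, Pla2g5, Mgst2, Ggt1, Ggt5 and Dpep1, chosen after their values were seen. Alternatives were normexp (offset 50), quantile normalization, the deposited matrix, a shift to the median, other filters and thresholds, blocks for replicate number, scan day or (at random) slide, weighted arrays, a robust prior with a trend, a fit of the compared time-points alone, an unmoderated test, 1 probe per gene, and the omission of each array. R 4.3.3, limma 3.58.1, the R package data.table (1.17.8), Python 3.11.15, numpy 2.4.6, pandas 2.3.3 and matplotlib 3.10.9 were used.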

Additional observations from a re-analysis of the deposited data

How the results depend on the processing

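Scan day and time cannot be told apart for 1 h and later against 0 h, each slide holds 1 time-point, and each group has 3 arrays, so a call near the limit turns with 1 array. Some calls of Ptgs1, Ptgs2, Ptgis, Ptgds, Pla2g4a, Alox5, Alox5ap, Ptger2, Ptger4, Ptgir, Slco2a1 and Ptgfr, among others, were lost in part or whole, or turned sign, under the normexp background correction. Deviations of same-numbered arrays correlated at -0.30 to 0.46 (median 0.10, over 0.1 in 23 of 45 pairs) and those of differently numbered ones at a median of -0.03 (over 0.1 in 24 of 90). Since not every pair exceeded 0.1, replicate numbers were not taken to pair the arrays. With replicate number as a block, the paired fit, 10 members were called in the F-test and 2, 3, 5, 6 and 8 against 0 h in order of time. The calls gained in these counts were Alox5ap at 1 h and 9 h (adjusted P-values from limma 0.0343 and 0.0174) and Ptgs1 at 3 h (0.0484) and in the F-test (0.0247). Over all 126 gene results, other comparisons and other genes included, this block gained 5 calls and lost 1.

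Under normexp, members called numbered 5 in the F-test (main value 9), 1 at 0.5 h and 1 at 1 h against 0 h (2 each), and 1 at 3 h and 2 at 6 h against 1 h (3 and 4). At 3 h, 6 h and 9 h against 0 h fewer members were called under normexp too. Ptger4 was called at none of these, and Ptger2 at neither 6 h nor 9 h. The fold limit of 2 left 5 in the F-test, 1 at 0.5 h, 3 at 6 h and 4 at 9 h against 0 h (2, 6 and 7), and 3 at 9 h against 1 h (5). At 0.5 h 1 was called with quantile normalization, the deposited matrix or the 2 time-points alone, and 1 to 2 with an array left out. At 1 h 5 were called with the shift to the median or array weights. At 3 h against 1 h 1 was called with the 2 time-points alone.

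Other eicosanoid genes called in the F-test (21) were 11 under normexp and 10 at 2-fold. At 0.5 h (1) they were 0 under normexp or at 2-fold, 2 with the shift to the median, with probes well above background on all 18 arrays, with scan day as a block or with the robust trend, 3 with the replicate block, 4 with array weights, and 0 to 2 with an array left out. At 1 h (2) they were 0 under normexp, 1 with quantile normalization or at 2-fold, 4 with probes well above background on all arrays, the replicate block or the robust trend, 5 with the 2 time-points alone, 6 with the shift to the median, 7 with array weights, and 1 to 4 with an array left out. At 3 h (10) they were 5 under normexp, 4 with the 2 time-points alone or at 2-fold, and 6 to 12 with an array left out, the lowest without replicate 2 of 0 h. At 6 h (16) they were 9 under normexp and 8 at 2-fold, and at 9 h (18) 11 and 9. Under normexp, where limma called 0, 3 of these genes at 0.5 h and 7 at 1 h had an unadjusted P-value under 0.05, and in the scaling used here, with no fold limit, 6 did at 0.5 h.

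Of single genes, the difference of Ptger2 between 9 h and 3 h and the change of Ptgfr at 3 h turned sign under normexp (-0.19 and 0.83). In 126 gene results, 3644 of 3900 alternative values kept direction and call, 200 lost the call and 54 gained one. The settings differed in this. Under normexp 84 of the 126 kept both, 40 lost the call and 2 turned sign. With the 2 time-points alone 84 kept both, 18 lost the call and 2 gained one. A further 78 member differences were called under no setting, and 25 of them changed sign at least once, with a size of at most 0.56. The causes of these changes were not tested.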
